A study of Mus musculus with 6 samples.

Results

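The genes described are the receptors and enzymes of the endocannabinoid system, taken by symbol: Cnr1, Cnr2, Cnrip1, Dagla, Daglb, Mgll, Faah, Napepld, Abhd6 and Abhd12. All 10 were found among the 52513 genes of the table, with no filter on expression, and 9 were expressed well enough to be tested. Segments L4 to L5 of the lumbar spinal cord were taken from wild-type mice given intrathecal saline (3 libraries) or intrathecal morphine (10 µg in 10 µL; 3 libraries) for 7 days. The series title ties the morphine course to tolerance, and the question put to the data is how these genes stand after it. Age, sex and strain are not stated in the labels. Levels are FPKM, that is fragments scaled to the length of the transcript and to the size of the library, so they can be compared between genes. In each group the label of a library is a run of numbers, 3 numbers for libraries 1 and 2 and 2 for library 3, so a library may be a pool of animals, which the labels do not state. Every SD, SE and p below therefore measures the spread between these libraries, which may be spread between pools or technical, and not between single animals.

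Endocannabinoids are lipid messengers that a neuron makes on demand from membrane phospholipids and that act backwards across the synapse to damp transmitter release. The main ones are 2-arachidonoylglycerol (2-AG), made by diacylglycerol lipases and broken down mostly by monoacylglycerol lipase, and anandamide, which is released from N-acyl phosphatidylethanolamines and broken down by fatty acid amide hydrolase. The receptor CB1 is neuronal and, in the dorsal horn, sits on terminals of nociceptive circuits, while CB2 is known mainly from immune cells. Both receptors couple to inhibitory G proteins, as opioid receptors do.

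No gene of the group passed the test for a change with morphine. Of the 9 tested genes 0 passed limma's test at an adjusted p under 0.05, where 1.51% of all 14614 tested genes passed (0.944% higher and 0.561% lower), and 0 had an unadjusted p under 0.05, where 22.3% did. On the log2(FPKM + 1) scale the fold changes, morphine minus saline, ran from -0.14 for Dagla to 0.16 for Cnrip1, with 4 genes higher and 5 lower. Their median was -0.06, and that of all tested genes was -0.02. In 3 of the 9 genes the groups did not overlap: Abhd12 was higher after morphine, and Dagla and Napepld were lower. Such separation was found in 28.7% of all tested genes (13.0% higher and 15.7% lower), a share close to that of the group.

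**Figure D1:**
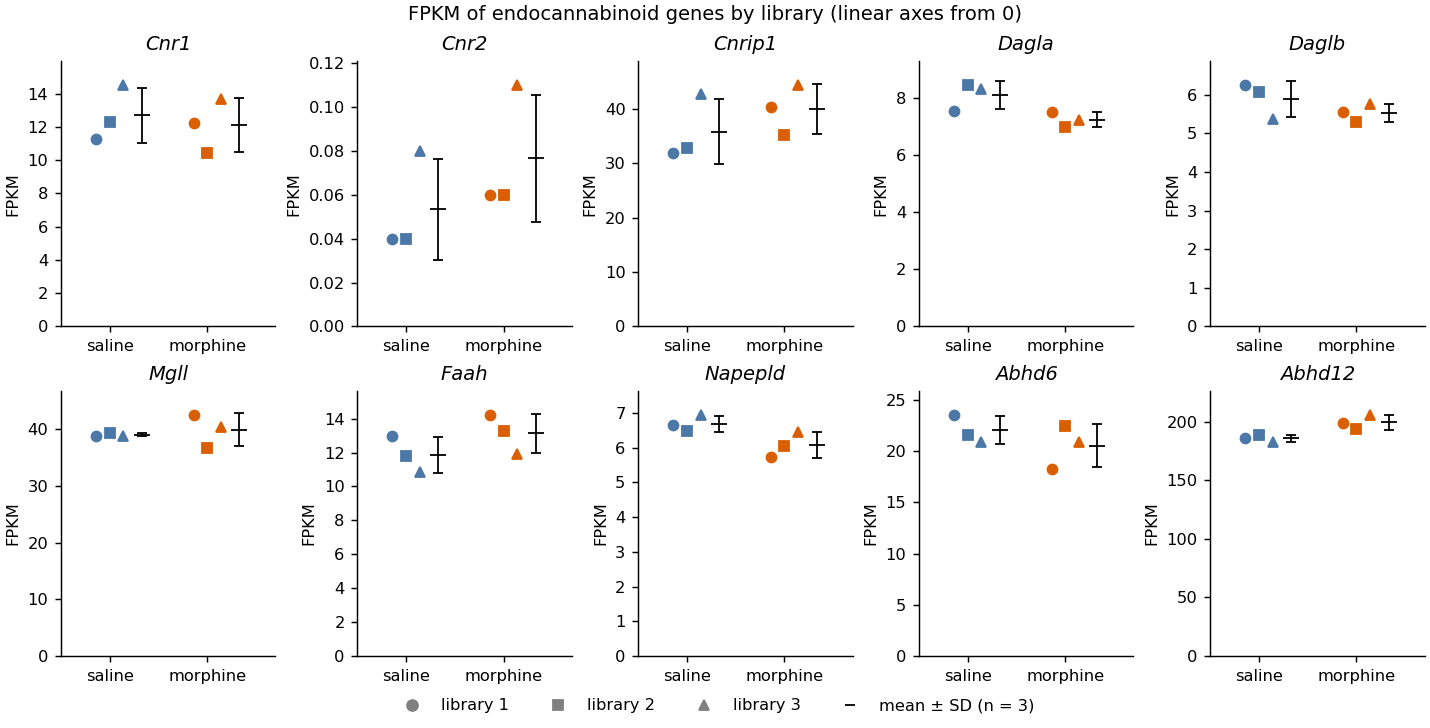
FPKM of the 10 genes in each of the 6 libraries, on linear axes that start at 0. Symbols mark the library number, and bars show the mean ± SD of 3 libraries. Abhd12 reached 182.9 to 205.74 FPKM and Cnr2 no more than 0.11 FPKM.

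The libraries themselves differed in ways that touch these genes. Depth, estimated from the steps of low FPKM values, was 17.6 to 25.6 M fragments, and FPKM totals were 662470 to 670280 in saline and 720234 to 741145 under morphine. Most motor neuron markers split the libraries within each group. The choline transporter gene Slc5a7 stood at 22.9, 20.4 and 3.70 FPKM in libraries 1, 2 and 3 of saline and at 4.62, 18.3 and 1.86 FPKM in morphine 1, 2 and 3. Of the same 10 markers Ache, the acetylcholinesterase gene and the list's most abundant member, showed no split, at 99.4 to 103 FPKM in all 6 libraries, and Mmp9 showed a weaker one (3.29 to 7.96 FPKM). Summed over 7 endothelial and pericyte markers the level was 100.5 to 100.8 FPKM under saline and 79.5 to 95.2 FPKM under morphine, and over 5 blood markers it was 757 to 1077 and 421 to 595 FPKM. What part these differences have in the values below was not tested, except where a fit with the motor neuron score is given. In bulk tissue, fewer cells of a type and less RNA per cell cannot be told apart. Hoxc10 and 5 other Hox genes, listed as lumbar markers, summed to 132 FPKM or more in every library. Hoxc10 was at 50.8 to 65.6 FPKM, while Hoxd11 was at 0.28 to 1.78 FPKM, too low to be tested. With no other segment to compare, these values cannot place the tissue at L4 to L5.

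The levels of the 10 genes spanned a wide range. Abhd12 led at 192 FPKM as the mean of the 6 libraries (SD 8.62), followed by Mgll at 39.5 (SD 1.93) and Cnrip1 at 37.8 (SD 5.27), whose ranges overlapped. Abhd6 came next at 21.3 FPKM (SD 1.79). Faah at 12.5 (SD 1.22) and Cnr1 at 12.4 (SD 1.50) could not be ordered, and each was the higher of the pair in 3 libraries. Dagla stood at 7.66 FPKM (SD 0.587), Napepld at 6.38 (SD 0.433) and Daglb at 5.72 (SD 0.383), and the ranges of Napepld and Daglb overlapped although Napepld was above Daglb in all 6 libraries. Cnr2 was last at 0.0650 FPKM (SD 0.0266). Among all tested genes Abhd12 lay at percentile 96.7 and Daglb, the lowest tested member, at percentile 33.3. Among these 10 genes, those for 2-AG breakdown (Mgll, Abhd6 and Abhd12) were thus expressed above those for its synthesis (Dagla and Daglb).

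Cnr1 (chromosome 4, 33924593 to 33948831, plus strand, mm10) encodes CB1, the neuronal cannabinoid receptor. It measured 11.3, 12.3 and 14.5 FPKM in libraries 1, 2 and 3 of saline and 12.2, 10.4 and 13.7 FPKM in morphine 1, 2 and 3. Saline 3 and morphine 3 were the highest of their groups, and the groups overlapped throughout. The log2 fold change was -0.06 (95% interval -0.35 to 0.23, limma adjusted p = 0.800). It turned to 0.03 without saline 3 and also without morphine 2, so its direction rested on single libraries.

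Cnrip1 (chromosome 11, 17051586 to 17079371, plus strand) encodes a protein that binds the C-terminal tail of CB1. Its values were 31.9, 32.8 and 42.6 FPKM under saline and 40.3, 35.1 and 44.3 FPKM under morphine, in library order. The means were 35.8 ± 5.94 and 39.9 ± 4.62 FPKM (SD, n = 3 each), and the groups overlapped (log2 fold change 0.16, 95% interval -0.15 to 0.47, limma adjusted p = 0.512). The Cnrip1 locus lies opposite Plek, with which it shares 4.97% of its exonic sequence, and the labels do not say whether counting used the strand.

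Both Cnr1 and Cnrip1 ran against the motor neuron markers. The motor neuron score, the mean log2(FPKM + 1) of 10 marker genes, was 4.20, 4.13 and 2.65 in saline 1, 2 and 3 and 3.09, 4.15 and 2.37 in morphine 1, 2 and 3. The same 10 genes summed to 153 to 353 FPKM in saline and 144 to 347 FPKM in morphine, and no group lacked them. Cnrip1 lay between 40.3 and 44.3 FPKM in the 3 libraries with scores of 3.09 or less and between 31.9 and 35.1 FPKM in the others. Markers of inhibitory neurons summed to 263, 255 and 321 FPKM over 5 genes in saline libraries 1, 2 and 3 and to 247, 212 and 272 FPKM in morphine. The order of the 6 libraries by Gad1, which makes GABA, was close to that by Cnr1, with 82.7, 90.4 and 116 FPKM under saline and 102, 77.6 and 108 FPKM under morphine. Slc6a5, the glycine transporter of inhibitory neurons, did not follow that order, at 57.8, 47.8 and 62.1 FPKM under saline and 33.6, 37.0 and 41.3 FPKM under morphine. Its groups were apart, and it and Slc32a1, the vesicular transporter of GABA and glycine, were the 2 of the 5 markers with an unadjusted p under 0.05, both with lower values (limma adjusted p = 0.0574 and 0.185). Slc17a6, the most abundant of 5 excitatory neuron markers, was at 68.52, 70.4 and 91.06 FPKM under saline. Under morphine it was at 72.55, 60.98 and 83.45 FPKM, and its library order was that of Gad1. Tlx3, a factor of excitatory dorsal horn neurons, was at 6.03, 6.09 and 9.50 FPKM under saline and 9.76, 6.66 and 9.93 FPKM under morphine. Slc17a6 and Tlx3 had log2 fold changes of -0.08 and 0.26, and neither passed (limma adjusted p = 0.773 and 0.483). Among libraries of high score, Cnr1 was at 11.3 and 12.3 FPKM under saline and 10.4 under morphine, and among those of low score at 14.5 FPKM under saline and 12.2 and 13.7 under morphine. With the score as a covariate the log2 fold change of Cnr1 was -0.15 and its SE 0.06, against an SE of 0.12 without it, and the test was still not passed (limma adjusted p = 0.161). That of Cnrip1 was 0.06 (SE 0.05, limma adjusted p = 0.464).

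**Figure D2:**
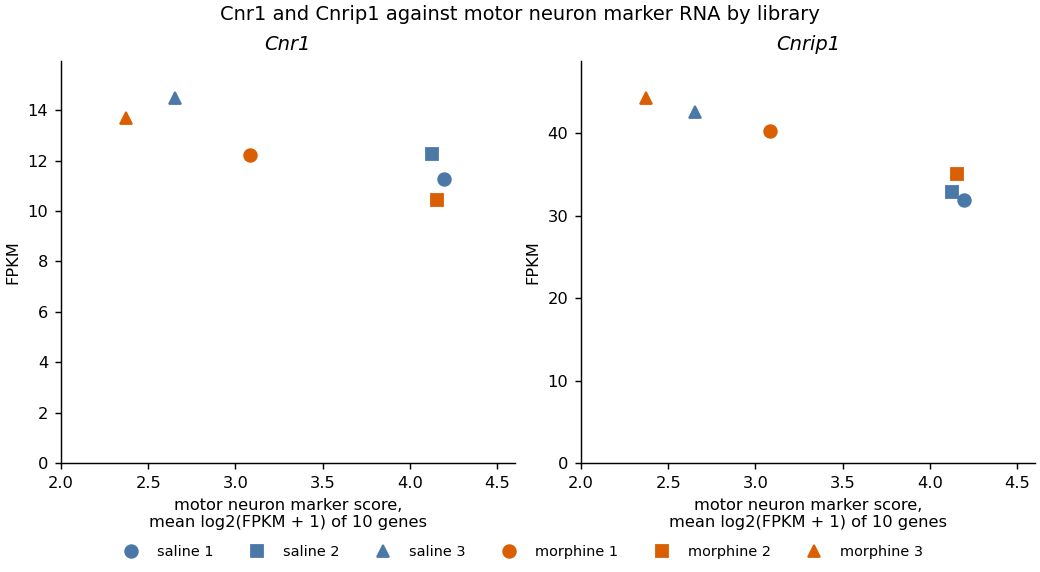
FPKM of Cnr1 and Cnrip1 (vertical axes, linear from 0) against the motor neuron marker score (horizontal axis, mean log2(FPKM + 1) of 10 genes), with 1 point per library, blue for saline and orange for morphine. Cnrip1 lies at 40.3 FPKM or above in the 3 libraries with scores up to 3.09 and at 35.1 FPKM or below in the other 3.

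The genes whose centred log2(FPKM + 1) values lay nearest to those of Cnr1 over the 6 libraries, among 12463 candidates, were Fgf14, Rundc3b and Fut9, at Euclidean distances of 0.0391, 0.0467 and 0.0468. Fgf14, which modulates neuronal sodium channels, was at 7.56, 8.51 and 10.0 FPKM under saline and 8.48, 7.19 and 9.29 FPKM under morphine. The values of Cnr1 itself spanned 0.439 on that scale.

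Cnr2 (chromosome 4, 135895394 to 135920207, plus strand) encodes CB2. It was listed at 0.04, 0.04 and 0.08 FPKM under saline and 0.06, 0.06 and 0.11 FPKM under morphine, under the level for testing (1 FPKM in at least 3 of 6 libraries). These values stand for about 3 to 7 fragments per library, so the 95% Poisson interval in saline 1 ran from 0.62 to 8.8 fragments. Pooled by group, 13 fragments in saline and 15 under morphine gave a rate ratio of 1.41 (95% interval 0.628 to 3.23, exact), which compares these libraries and covers counting error alone. No difference in Cnr2 was detected, and at this depth the counts leave any rate ratio within that interval possible. Microglia, cells in which CB2 can appear, were well represented, with Cx3cr1 at 11.1 to 12.3 FPKM and P2ry12 at 23.6 to 29.2 FPKM over the 6 libraries. Markers of lymphocytes, which carry CB2 in blood, summed to 0.64 FPKM or less over 6 genes.

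Sequence at an annotated start is shown for Cnr1 and Cnr2 because the receptor genes stand far apart in level. Each window, from RefSeq on GRCm38.p6, runs from 250 bases before to 50 after the start that lies nearest to the annotated gene start, 5′ to 3′ on the gene's strand. Capitals mark CG, the CpG dinucleotide. The Cnr1 window is chr4:33924394-33924693 (plus strand) and the Cnr2 window is chr4:135894939-135895238 (plus strand).
Cnr1: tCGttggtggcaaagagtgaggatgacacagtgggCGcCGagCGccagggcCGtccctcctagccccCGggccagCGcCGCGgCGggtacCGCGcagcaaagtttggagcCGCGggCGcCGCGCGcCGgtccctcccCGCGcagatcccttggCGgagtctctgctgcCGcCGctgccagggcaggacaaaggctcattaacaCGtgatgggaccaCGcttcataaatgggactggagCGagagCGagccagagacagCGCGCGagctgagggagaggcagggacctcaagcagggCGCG
Cnr2: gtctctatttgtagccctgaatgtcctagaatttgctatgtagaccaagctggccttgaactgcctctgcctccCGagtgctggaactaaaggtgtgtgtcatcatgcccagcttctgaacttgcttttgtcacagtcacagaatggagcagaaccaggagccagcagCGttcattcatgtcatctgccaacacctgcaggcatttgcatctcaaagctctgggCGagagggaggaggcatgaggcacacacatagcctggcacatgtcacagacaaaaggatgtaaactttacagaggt
The Cnr1 window holds 33 CpG and is 69.0% G and C, and 8.6% of all 32851 windows of this length hold as many CpG. Of the other RefSeq starts of Cnr1, the window at chr4:33924014-33924313 holds 40 CpG and that at chr4:33926130-33926429 holds 5, which 62.0% of windows match or exceed. The Cnr2 window holds 3 CpG, and 76.7% of windows hold as many, and the window of its other start also holds 3. Which start was used in these libraries cannot be read from gene-level values. Windows were present for 8 of the 10 genes, and among the others the nearest window held 32 CpG for Mgll, 28 for Napepld, 24 for Abhd6, 16 for Faah, 11 for Daglb and 8 for Cnrip1, against a median of 7 over all windows. These counts describe the sequence and say nothing of methylation or use of the start.

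Dagla and Daglb encode the diacylglycerol lipases that make 2-AG, of which the alpha form supplies most of the 2-AG of adult neurons. Dagla (chromosome 19, 10245265 to 10304877, minus strand) was at 7.53, 8.43 and 8.30 FPKM under saline and 7.50, 6.96 and 7.23 FPKM under morphine. All 3 morphine values lay below the 3 saline values, though saline 1 and morphine 1 differed by only 0.03 FPKM in the table. The means were 8.09 ± 0.486 and 7.23 ± 0.270 FPKM (SD, n = 3 each), a log2 fold change of -0.14 (95% interval -0.32 to 0.04, limma adjusted p = 0.320). Rescaled to transcripts per 1e6 (TPM), which moves the median of all genes from -0.02 to -0.13, the log2 fold change of Dagla was -0.26 (limma adjusted p = 0.0770). Other settings weakened it, to -0.11 after quantile normalization and -0.09 with each library's trend with gene length removed (limma adjusted p = 0.417 and 0.552).

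Daglb (chromosome 5, 143464584 to 143505942, plus strand) was at 6.25, 6.07 and 5.37 FPKM under saline and 5.55, 5.30 and 5.77 FPKM under morphine. The groups overlapped, with saline 3 among the lowest values (log2 fold change -0.07, 95% interval -0.27 to 0.12, limma adjusted p = 0.635). With the length trend removed it was 0.00357. The locus lies opposite Rac1, which at 178 to 204 FPKM was far more abundant and covers 24.1% of the exonic sequence of Daglb. Its level is therefore uncertain as a measure of Daglb alone.

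Mgll (chromosome 6, 88724412 to 88828360, plus strand) encodes monoacylglycerol lipase, the main enzyme of 2-AG breakdown in nervous tissue. In saline it varied little, at 38.9, 39.4 and 38.9 FPKM, and in morphine it was at 42.6, 36.8 and 40.5 FPKM, values that surround those of saline. The log2 fold change was 0.03 (95% interval -0.13 to 0.19, limma adjusted p = 0.828), and its sign turned with TPM scaling (-0.10) and without morphine 1 (-0.02). An antisense gene, Gm26588, shares 3.29% of the exonic sequence and reached no more than 1.03 FPKM.

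Abhd6 and Abhd12 encode serine hydrolases that take a smaller part in 2-AG breakdown, Abhd6 facing the cytosol and Abhd12 the other side of the membrane. Abhd12 is also the main lipase of lysophosphatidylserine, and its loss causes the neurodegenerative disease PHARC in humans. Abhd12 (chromosome 2, 150832493 to 150904741, minus strand) was at 185.9, 188.3 and 182.9 FPKM under saline and 198.9, 193.5 and 205.7 FPKM under morphine. The groups were apart, with means of 186 ± 2.72 and 199 ± 6.15 FPKM (SD, n = 3 each) and a log2 fold change of 0.10 (95% interval -0.01 to 0.22, limma adjusted p = 0.269). The difference depended on scaling between libraries, being 0.01 after quantile normalization and -0.03 as TPM.

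Abhd6 (chromosome 14, 8002902 to 8056763, plus strand) was at 23.5, 21.6 and 20.9 FPKM under saline and 18.2, 22.4 and 20.9 FPKM under morphine. Its lowest value was in morphine 1, and the groups overlapped (log2 fold change -0.10, 95% interval -0.31 to 0.11, limma adjusted p = 0.555). Of the summed FPKM of Mgll, Abhd6 and Abhd12, Abhd12 made up 74.9% to 75.5% in saline and 76.6% to 77.0% in morphine.

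Napepld (chromosome 5, 21662901 to 21701396, minus strand) encodes the phospholipase D that releases anandamide and other N-acylethanolamines. It was at 6.64, 6.49 and 6.94 FPKM under saline and 5.73, 6.04 and 6.46 FPKM under morphine. The groups were apart by a gap of 0.03 FPKM between saline 2 and morphine 3, and the log2 fold change was -0.12 (95% interval -0.30 to 0.06, limma adjusted p = 0.396).

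Faah (chromosome 4, 115967145 to 116017926, minus strand) encodes fatty acid amide hydrolase, which ends anandamide signalling. Its values were 13.0, 11.8 and 10.8 FPKM under saline and 14.2, 13.3 and 11.9 FPKM under morphine. Saline 1 was above morphine 3, so the groups overlapped (log2 fold change 0.14, 95% interval -0.09 to 0.36, limma adjusted p = 0.441).

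**Figure D3:**
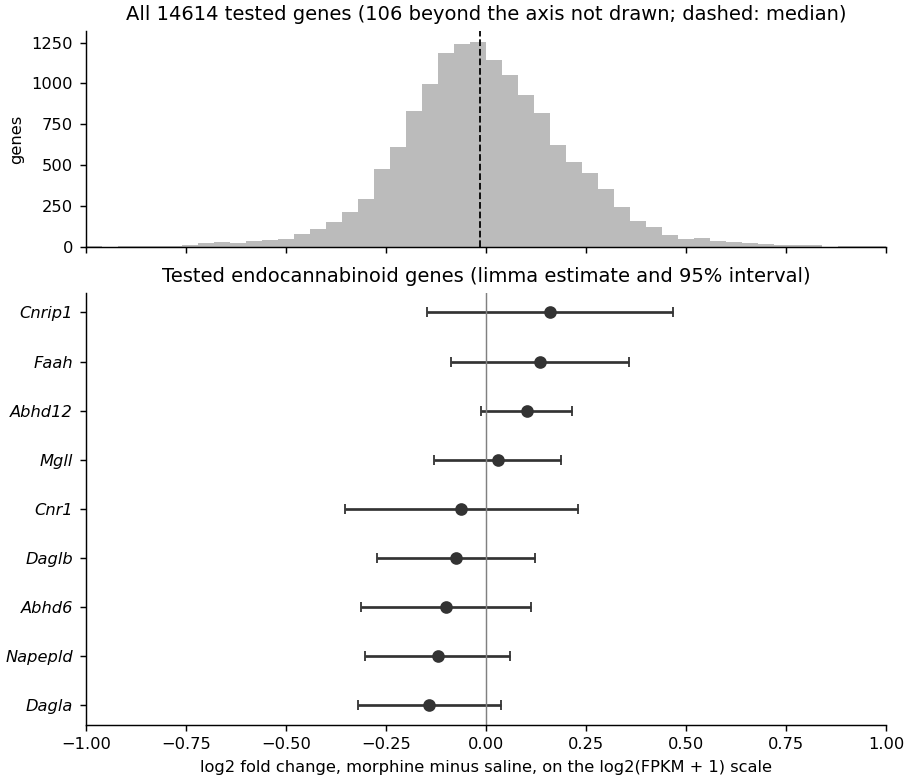
Upper panel, log2 fold changes of all 14614 tested genes (dashed line, median of -0.02). Lower panel, limma estimates (points) and 95% intervals (bars) of the 9 tested endocannabinoid genes on the same log2(FPKM + 1) axis, where all 9 intervals include 0, from -0.14 for Dagla to 0.16 for Cnrip1.

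Ratios between enzymes of one library do not depend on scaling between libraries, and 4 were compared by an exact two-sided permutation test, whose smallest p with 3 against 3 libraries is 0.1. The summed 2-AG hydrolases Mgll, Abhd6 and Abhd12 exceeded the diacylglycerol lipases 18.0, 17.2 and 17.8 times in saline and 19.9, 20.6 and 20.6 times in morphine. This ratio and that of Dagla to Daglb include Daglb, whose level is uncertain because its locus lies opposite Rac1. The 3 morphine ratios all lay above the 3 saline ratios, by 0.21 on the log2 scale (exact permutation p = 0.1, adjusted p = 0.4 over the 4 ratios). Abhd12 dominates this ratio, and its exonic sequence of 2823 nt is shorter than the 5747 nt of Dagla and the 9567 nt of Daglb. Exonic sequence here is joined over all transcripts of a gene. The only coding transcripts are 1999 nt for Abhd12, 5634 nt for Dagla and 4651 nt for Daglb, so Daglb is there shorter than Dagla. The length trend below was taken on exonic sequence. Over all genes the median log2 fold change was 0.11 among those of 117 to 2421 nt of exonic sequence. It was 0.00171 at 2422 to 4170 nt, which holds Abhd12, and -0.0507 at 4171 to 6595 nt, which holds Dagla. At 6596 nt or more, which holds Daglb, it was -0.08. With each library's length trend removed, a setting added after the values were seen, the difference was 0.11, with ratios of 17.6 to 18.5 in saline and 19.4 to 19.8 under morphine.

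The ratio of Faah to Napepld, the breakdown and release enzymes of anandamide, was 1.95, 1.82 and 1.56 in saline and 2.48, 2.20 and 1.84 under morphine. Morphine 3 fell within the saline range (log2 difference 0.29, exact permutation p = 0.2, adjusted p = 0.4). Dagla exceeded Daglb 1.20 to 1.55 times in saline and 1.25 to 1.35 times in morphine (log2 difference -0.07, exact permutation p = 0.6, adjusted p = 0.6), and the difference was 0.0130 without saline 3. Mgll exceeded Abhd6 1.65 to 1.86 times in saline and 1.64 to 2.33 times in morphine (log2 difference 0.13, exact permutation p = 0.5, adjusted p = 0.6).

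**Figure D4:**
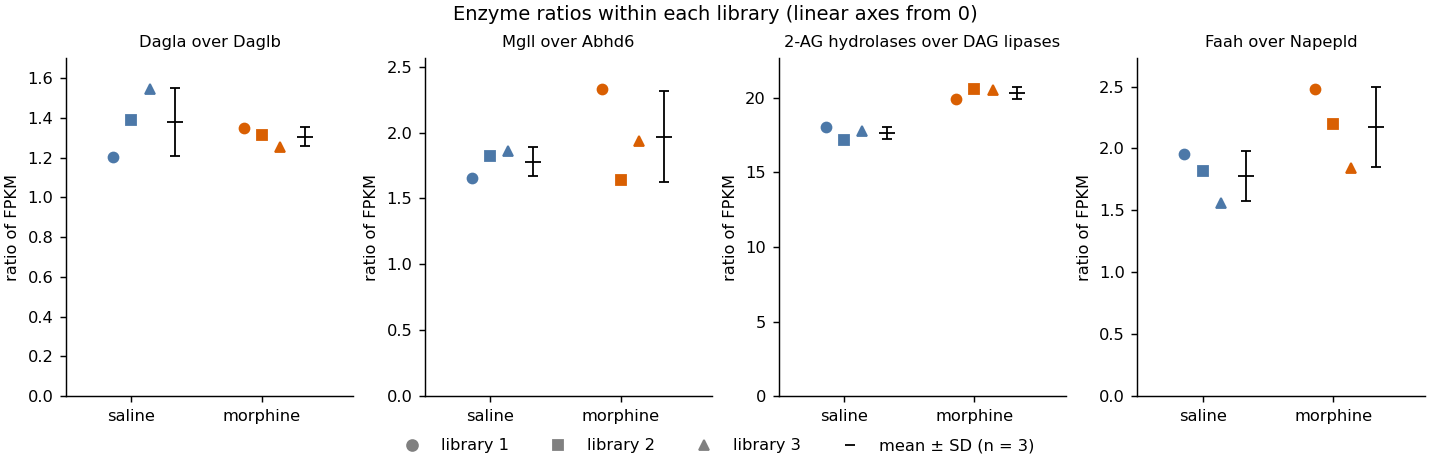
Ratios of FPKM within each library for 4 pairs or groups of endocannabinoid enzymes, on linear axes from 0. Symbols mark the library number and bars the mean ± SD of 3 libraries. The 2-AG hydrolases over the diacylglycerol (DAG) lipases lie at 17.2 to 18.0 in saline and 19.9 to 20.6 under morphine.

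The wider pathway was read from 45 further genes in 4 lists, all of which were in the table and 33 of which were tested. Of these, 0 passed limma's test over all genes, while 2 higher and 2 lower had an unadjusted p under 0.05, as did 11.2% and 11.1% of all tested genes. Their median log2 fold change was -0.04, against -0.02 for all tested genes, and in 7 of the 33 the groups did not overlap (2 higher, 5 lower), or 21.2%, against 28.7% of all tested genes. Other receptors of endocannabinoid lipids were scarce, with 1 of 7 tested. This was Ppard, a nuclear fatty acid receptor, at 9.25 FPKM under saline and 8.41 under morphine, and Pparg was at 0.367 and 0.377 FPKM.

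Among other synthesis genes 15 of 16 were tested, 4 higher and 11 lower. Gde1, a glycerophosphodiesterase of an alternative route to anandamide, was the most abundant at 129 FPKM under saline and 132 under morphine, and Abhd4, of the same route, was at 55.1 and 55.8 FPKM. Ptpn22, a phosphatase placed on another such route, was at 0.80, 0.75 and 1.15 FPKM under saline and 1.31, 1.29 and 1.50 FPKM under morphine. Its groups were apart, and its p was the smallest of the 33 (log2 fold change 0.32, SE 0.12, limma adjusted p = 0.190). Ddhd1, a phospholipase A1, was at 17.6 and 15.3 FPKM (limma adjusted p = 0.211).

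Of 12 other breakdown genes 7 were tested. Abhd16a, a phosphatidylserine lipase, was at 50.0 FPKM under saline and 48.5 under morphine, and Ddhd2, a brain triglyceride lipase, at 22.3 and 21.9 FPKM. Pnpla2, the adipose triglyceride lipase, was at 13.6 ± 1.02 and 16.6 ± 2.22 FPKM (SD, n = 3 each; limma adjusted p = 0.204). All 10 carriers and receptor regulators were tested, 5 higher and 5 lower. Fabp5, a fatty acid binding protein that carries anandamide inside cells, was the most abundant at 232 and 253 FPKM. Gprasp1, a sorting protein of G protein-coupled receptors, was at 134, 143 and 173 FPKM under saline and 142, 112 and 146 FPKM under morphine, again with the highest saline value in saline 3. Sgip1, which slows internalization of CB1, was at 24.3, 24.7 and 26.5 FPKM under saline and 21.5, 20.7 and 24.1 FPKM under morphine, with the groups apart (log2 fold change -0.18, SE 0.08, limma adjusted p = 0.221).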

How the data were processed

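RNA of the lumbar cord was measured in 3 saline and 3 morphine libraries, made from total RNA with a stranded kit per the labels' protocols. The authors deposited 1 table of FPKM, rounded to 2 decimals. RSEM, STAR, Trimmomatic, bcl2fastq 2.19.0 and the mm10 build are named in the submitters' processing notes. Annotation release and strand setting: not given in the sources used here. Columns were matched to samples by description.

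The 14614 genes that reached 1 FPKM in 3 or more of the 6 libraries were fitted as log2(FPKM + 1) with limma 3.58.1 under R 4.3.3, using an intensity trend and two-sided tests, adjusted by Benjamini-Hochberg over all of them. Cnr2, under that level, was read from the fit without the filter where a fold change is meant. Fold changes understate those of genes near 1 FPKM. Gene positions and exonic lengths were read from GENCODE M21 (mm10), where 99.8% of tested genes were found, and 3 listed symbols were matched through RefSeq synonyms. Depth is an estimate from single-transcript genes, where 74.9% to 78.0% of low values lay near a whole number of fragments against 12.7% to 15.7% for values spread evenly. Python 3.11.15, SciPy 1.17.1 and matplotlib 3.10.9 were used. The depth estimate was tested on simulated data.

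Genes named are the 10 members, the 4 pathway genes with the smallest p, the 2 most abundant of each pathway list, markers with the highest mean, set marker genes, and the 3 genes nearest to Cnr1. Plek, Rac1 and Gm26588 were named for their overlap, and Mmp9, Slc6a5 and Hoxd11 after their values were seen. The members and lists were chosen with earlier results of these data known.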

Additional observations from a re-analysis of the deposited data

How the results depend on the processing

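No endocannabinoid gene passed limma's test under any of the 9 other settings or without any 1 library. Of 149 such fold changes 143 kept their direction. Fitting with no filter, without the intensity trend or with libraries paired by number returns the main fold change, so direction could not turn there. The 6 that turned were Cnr1 without saline 3 (0.0316) and without morphine 2 (0.0338), Daglb with the length trend removed (0.00357), Mgll as TPM (-0.0969) and without morphine 1 (-0.0169), and Abhd12 as TPM (-0.0263). The log2 ratio of Dagla over Daglb turned without saline 3 (0.0130), and the other 35 of 36 ratio values kept their direction. Pairing libraries by number leaves each ratio difference as it is, so those values could not turn. Without 1 library, Cnr1 ranged from -0.15 to 0.0338, Mgll from -0.0169 to 0.0862 and Dagla over Daglb from -0.17 to 0.0130. An unadjusted p under 0.05 was found for 2 of the 9 tested genes as TPM, 1 with the motor neuron score and 1 without saline 3. Of all 14614 tested genes 4596, 4144 and 2886 had one in these settings. The wider pathway gave 2 calls with the motor neuron score as a covariate, Pnpla2 (0.33) and Gprasp1 (-0.27, limma adjusted p = 0.0453 and 0.0425), and 0 elsewhere.

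The count over the whole table, 220, was less stable. It was 8 with no filter, 954 as TPM, 102 after quantile normalization (47 higher, 55 lower, against 138 and 82), 36 without the intensity trend, 34 with the length trend removed and 960 with the motor neuron score. As TPM 101 were higher and 853 lower. Leaving out 1 library gave 1 to 805, with 1 without saline 1, morphine 1 or morphine 3, 8 without saline 2, 2 without saline 3 and 805 without morphine 2. With a replicate block, that is pairing libraries by number, 24 genes passed and the endocannabinoid count stayed at 0. Deviations from the group means correlated across genes at -0.129, 0.161 and 0.295 for numbers 1, 2 and 3. Saline 1 correlated best with morphine 2 (0.238), while saline 2 and saline 3 correlated best with the morphine library of their own number. With 3 libraries in each group, these values cannot show whether equal numbers mark a pairing. Where a call or direction changed, the cause was not tested. Depth limits Cnr2, whose values stood for 3 to 7 fragments.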
